A study of Mus musculus with 1298 samples.

Results

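The Igf axis was followed through 10 genes of the mouse *Pax7* lineage: the ligands *Igf1* and *Igf2*, the receptors *Igf1r* and *Igf2r*, and the binding proteins *Igfbp2*, *Igfbp3*, *Igfbp4*, *Igfbp5*, *Igfbp6* and *Igfbp7*. They were chosen by name, not by their values, and are 10 of the 26724 genes listed in any of the 10x, Smart-seq2 and bulk count tables. All 10 were present in each of the 3 tables. All 10 passed the filter on low counts in 5 of the 8 tested comparisons, and the members left out of the other 3 are named beside those results.

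Igf1 and Igf2 are secreted growth factors that signal through the Igf1 receptor tyrosine kinase and its adaptors to the PI3 kinase, Akt and mTOR pathway. The Igf2 receptor has no such kinase and carries Igf2 to the lysosome for breakdown. The Igf binding proteins hold the ligands outside the cell, where proteases such as Pappa, Pappa2, Adam12 and the Htra family can cleave them, and the axis is well known for promoting growth of embryonic muscle, skin and fat.

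Cells came from *Pax7CreER:R26R-stop-EYFP* embryos, in which tamoxifen turns on YFP in *Pax7*-expressing cells and in their later progeny. Every group carried both alleles and received 75 µg/g of tamoxifen once at E9.5, and no group without tamoxifen or without Cre was analysed here. Embryos were pooled at E12.5, E14.5 or E16.5, the head, limbs and viscera were taken off, and YFP+ cells were sorted. Each day was profiled by 1 10x library and by plates of Smart-seq2 (ss2), a full-length method. The label therefore marks cells whose ancestors or selves expressed *Pax7*, and the embryos of a day cannot be told from one another.

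Of 3916 deposited cells, 3852 were kept, 2921 on 10x and 931 on ss2. The median depth per kept 10x library was 1608 to 5930 UMIs, with the E14.5 library deepest, and the median ss2 cell of a day held 393416 to 829590 expected counts. A total of 3 barcodes occurred in more than one 10x library. Clustering without the 10 genes and without 51 other genes of the pathway gave 17 clusters, of which 16 could be named from markers into 9 classes. The names follow the classes used for this lineage, here written "X-like" since they were rebuilt: early progenitor (EP), late progenitor (LP), early muscle (EM), late muscle (LM), dermal fibroblast (DF), brown adipocyte (BA), neuron (N), neural progenitor or glia (NP) and pericyte (PE). The names rest on genes correlated with the Igf genes, so the classes are not independent of them. EP-like cells were nearly all of E12.5, LP-like and DF-like cells of E14.5 and E16.5, and BA-like cells of E16.5. Each ss2 sequencing batch held cells of 1 day only, so that day and batch cannot be told apart. For a comparison, the counts of all cells of a class were summed within a pool, that is, 1 platform and 1 day. The sources do not say whether the 10x and ss2 cells of a day came from the same embryos. Where the classes share pools, the p-values measure how far the class difference varies between pools, and otherwise the spread left after platform. Platform, day and litter cannot be told apart in that spread. The test also borrows spread from other genes. EP-like against EM-like and the LP-like days leave 1 residual degree of freedom, so that small p-values there do not show agreement between replicates.

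The promoters of the binding proteins were set beside one another first, because 3 of them hold a TATA-like word. A link between these words and the class differences below was not tested. In the last 100 bases before the RefSeq start (GRCm38.p6), the canonical word TATAAA was searched on both strands together with its variants TATTTA and, as the last of the 3, TATATA. The match is printed in capitals. The windows shown lie at chr11:7213924-7214023 on the minus strand for *Igfbp3*, at chr11:99041144-99041243 on the plus strand for *Igfbp4* and at chr1:72874866-72874965 on the minus strand for *Igfbp5*, each printed 5′ to 3′ along the gene.
Igfbp3: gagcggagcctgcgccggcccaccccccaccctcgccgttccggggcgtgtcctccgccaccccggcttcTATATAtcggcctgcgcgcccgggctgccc
Igfbp4: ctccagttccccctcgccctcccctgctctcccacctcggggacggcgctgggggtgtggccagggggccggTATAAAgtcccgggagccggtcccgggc
Igfbp5: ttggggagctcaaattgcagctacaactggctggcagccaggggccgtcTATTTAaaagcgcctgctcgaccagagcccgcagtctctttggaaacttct
The other 7 genes held none of the 3 words in that window. Of the 32851 promoters in the table, 5.56% held TATAAA, 4.74% TATTTA and 2.19% TATATA, and 10.6% held at least 1 of them. The *Igfbp5* window reaches into the first exon of the GENCODE gene.

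*Igf1* was highest in LP-like cells. It lies at chr10:87858265-87937042 on the plus strand, with 9904 bases of merged exons. On 10x, over all days, it was at 640.5 CPM (counts scaled to the library's total; 95% Poisson interval 610 to 673) in LP-like cells and at 201.9 CPM in EP-like cells. PE-like, DF-like and BA-like cells followed at 60.3, 57.8 and 52.2 CPM, which did not differ beyond their counting intervals. The muscle and neural classes lay between 9.40 CPM in NP-like and 18.8 CPM in N-like cells. *Igf1* was counted in 69.9% of LP-like cells (exact 95% interval 66.1 to 73.6%, median depth 3707 UMIs), against 5.61% of EM-like cells (3342 UMIs). It was counted in 4.00% of N-like cells at a similar depth (3315 UMIs). The N-like 10x sums were at 14.9 CPM at E12.5 and 40.9 CPM at E14.5, and the part of free RNA in them was not tested. When each cell was thinned to 1000 UMIs, the share in LP-like cells was 44.8% and in EM-like cells 1.36%. On ss2 the order was led by the same class, at 1068 CPM for LP-like cells, followed by EP-like (199.7) and DF-like cells (161.1). These intervals, and those below, cover counting error only.

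*Igf2*, at chr7:142650766-142666816 on the minus strand, was also highest in LP-like cells over all days, but the platforms disagreed on the rest. On 10x it stood at 196.6 CPM in LP-like cells. That sum joins 99.8 CPM at E14.5 and 747 CPM at E16.5, and EP-like cells of E12.5 were at 102.7 CPM. EP-like cells (107.4, 81.6 to 138.9) and PE-like cells (84.5, 46.2 to 141.7) overlapped within their intervals, and EM-like cells were at 42.5 CPM. On ss2 it stood at 2532 CPM in LP-like, 1416 in EM-like, 1373 in PE-like, 1313 in LM-like and 1002 in EP-like cells. By day, LP-like ss2 cells were at 2294 CPM at E14.5 and 2709 CPM at E16.5, and EM-like ones at 2220 CPM at E12.5. In every mesenchymal and muscle class and day with at least 20 cells on both platforms, ss2 gave more CPM than 10x, from 3.63 times in LP-like cells at E16.5 to 54.5 times in LM-like cells at E14.5. In N-like cells it gave less, 0.0611 times at E12.5 and 0.132 times at E14.5. The neural classes were close to 0 on ss2, at 1.03 CPM in N-like and 0.941 CPM in NP-like cells, and at 17.1 and 11.7 CPM on 10x. The distance between muscle and neural cells was thus much larger on ss2 than on 10x, and the cause was not tested. The gene was counted in 100% of LP-like ss2 cells and in 14.7% of N-like ones.

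The receptors were arranged differently. *Igf1r*, at chr7:67952827-68233668 on the plus strand, was highest in N-like cells on 10x, at 203.95 CPM (183.4 to 226.2), ahead of NP-like (124.5), EP-like (122.2) and EM-like cells (97.7). These sums hold different shares of the days: at E12.5 alone N-like cells were at 224.9 CPM, and EM-like (190.4) and LM-like cells (191.6) overlapped with them within their intervals, while on ss2 EM-like cells were the higher, at 115.2 against 96.5 CPM. It was lowest in BA-like cells, at 11.6 CPM (4.26 to 25.3). On ss2 the range was narrower in most classes, between 46.98 CPM in DF-like and 99.3 CPM in N-like cells, with PE-like (18.98) and BA-like cells (3.51) below. *Igf2r*, at chr17:12682406-12769664 on the minus strand, was at 150.9 CPM (97.6 to 222.7) in PE-like and 132.2 CPM (118.3 to 147.2) in LP-like cells on 10x, which overlapped. LM-like cells followed at 76.1 CPM, and N-like, BA-like and NP-like cells were at 23.9, 19.4 and 18.8 CPM. On ss2, LP-like (337.9), LM-like (270.01) and PE-like cells (237.5) were again the highest 3 classes.

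**Figure D1:**
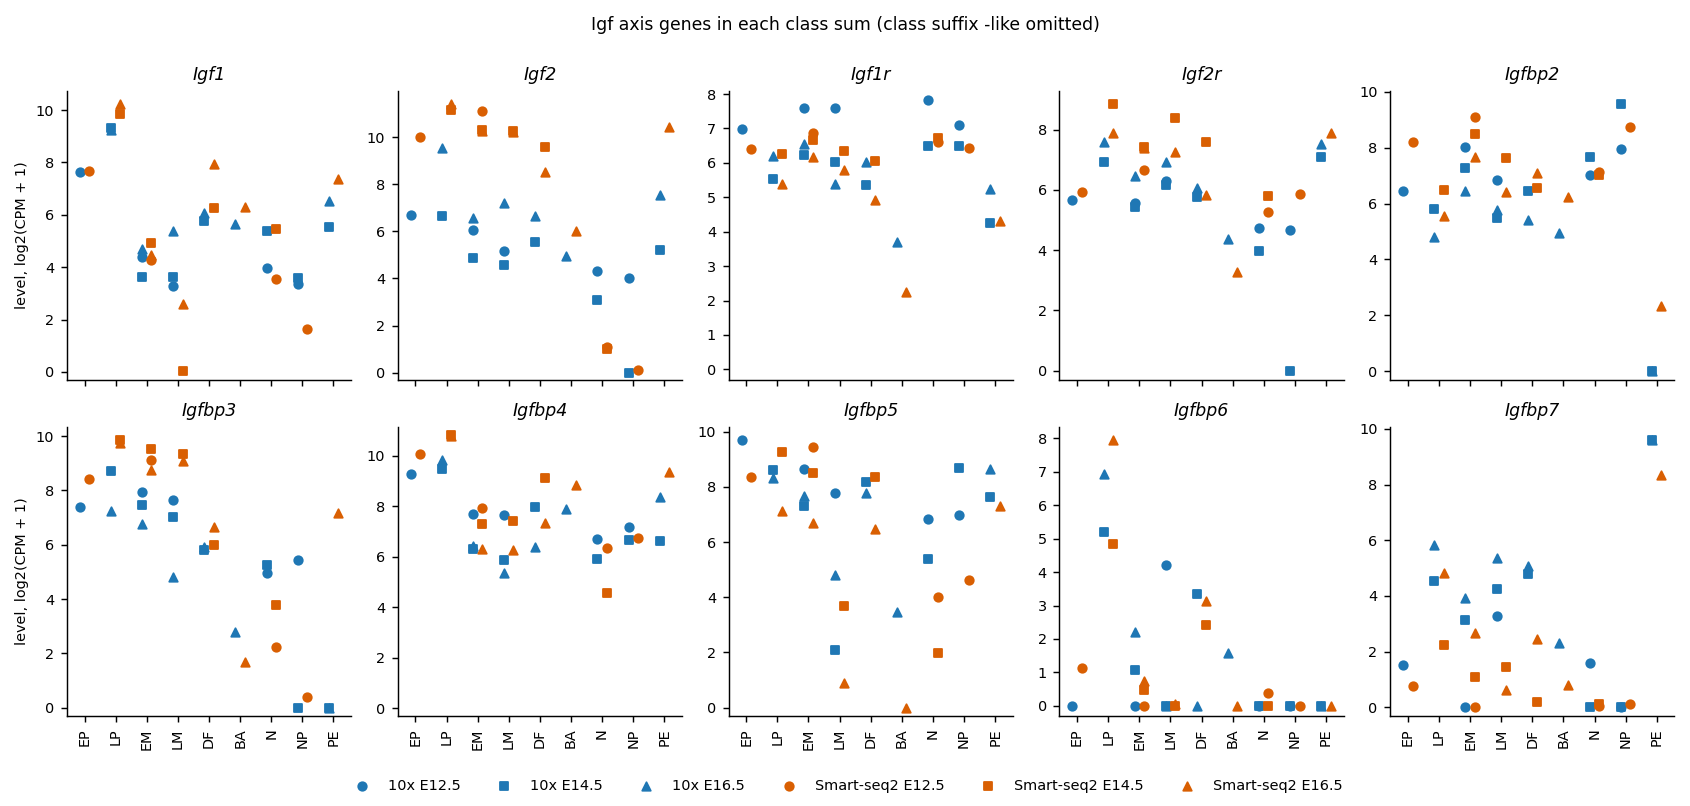
Levels of the 10 Igf axis genes in each class, 1 panel per gene, as log2(CPM + 1) of the summed counts of a class in 1 platform and day (blue, 10x; orange, Smart-seq2; the marker shape gives the day). *Igf1* and *Igfbp4* stood highest in LP-like and *Igfbp7* in PE-like sums, *Igfbp2* was high in NP-like and in E12.5 EM-like sums, and *Igf2* was the gene whose platforms lay farthest apart.

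Over all days, *Igfbp3*, *Igfbp4* and *Igfbp6* led in LP-like cells on both platforms, *Igfbp2* in NP-like and *Igfbp7* in PE-like cells, and *Igfbp5* in different classes on the 2 platforms. *Igfbp2*, at chr1:72824503-72852474 a neighbour of *Igfbp5*, was highest in NP-like cells on both platforms, at 373.5 CPM (317.7 to 436.3) on 10x and 457.3 CPM on ss2 when the days were summed. That order did not hold at E12.5, where EM-like cells were at 255.99 and NP-like cells at 246.2 CPM on 10x, with overlapping intervals, and at 549 and 426.2 CPM on ss2. At E14.5, 29 NP-like 10x cells were at 752.6 CPM against 152.6 CPM in EM-like cells. No UMI of it was seen among the 165722 of the 42 PE-like cells, which allows up to 22.3 CPM. *Igfbp3*, at chr11:7206086-7213923, led in LP-like cells at 382.9 CPM on 10x and 881 CPM on ss2, with EM-like cells at 180.7 and 583 CPM. *Igfbp4*, at chr11:99041244-99054392, led in LP-like cells at 749.5 and 1787 CPM and was second in EP-like cells at 626 and 1067 CPM. It was counted in 84.1% of LP-like and 24.4% of N-like 10x cells.

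*Igfbp5*, at chr1:72857932-72874884, was highest in EP-like cells on 10x, at 817 CPM (742 to 897), but on ss2 LP-like (380.5), EP-like (319.6) and EM-like cells (317.5) were close to one another. *Igfbp6*, at chr15:102144362-102149511, was highest in LP-like cells: it reached 48.6 CPM there and 6.27 CPM in DF-like cells, and had no UMI in the 10x cells of 4 classes, EP-like, N-like, NP-like and PE-like, whose upper limits were 6.83, 2.10, 8.67 and 22.3 CPM. *Igfbp7*, at chr5:77349240-77408041, encodes the most divergent member, which binds the ligands weakly, and stood at 766 CPM (639 to 912) in PE-like 10x cells. DF-like cells, the next class, were at 28.5 CPM. On ss2 it was at 325.6 CPM in PE-like and 16.7 CPM in LP-like cells. A UMI of it was found in 71.4% of PE-like (55.4 to 84.3%), 9.12% of LP-like and 0.667% of N-like 10x cells. PE-like cells numbered 42 on 10x and 15 on ss2, too few per pool for a test.

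Full-length ss2 reads allow genes to be compared per length of merged exon. The 6 binding proteins summed to 930.3 CPM per kilobase in LP-like cells, 562.9 in EP-like, 494.2 in PE-like, 451.6 in EM-like, 349.3 in LM-like, 278.8 in NP-like, 164.4 in BA-like and 92.9 in N-like cells, with DF-like cells between the NP-like and BA-like classes. *Igfbp4* made up the largest part of the sum in the EP-like (42.9%), LP-like (43.5%), DF-like (38.2%) and BA-like (121.7 of 164.4 CPM per kilobase) classes, *Igfbp3* in EM-like (41.2%) and LM-like cells (58.4%), *Igfbp2* in N-like (83.99%) and NP-like cells (88.8%), and *Igfbp7* in PE-like cells (54.5%). EM-like cells were nearly even between *Igfbp3* at 186.2 and *Igfbp2* at 178.01 CPM per kilobase, and at E12.5 *Igfbp2* led there at 297.3. In DF-like cells at E16.5 *Igfbp2* also led, at 74.04 CPM per kilobase. The 2 ligands summed to 550.3 CPM per kilobase in LP-like cells and to 0.349 in NP-like cells. In each of the 9 classes the 2 ligands summed to less than the 6 binding proteins, and in PE-like cells they were at 256.5 against 494.2. These sums hold unequal numbers of genes. Per length, *Igf2* alone was above the leading binding protein in LP-like, EM-like, LM-like and DF-like cells, where the latter was at 404.7, 186.2, 204.1 and 80.7. In the remaining classes it was below. Each of these values is 1 sum over the days of a class, with no replicate.

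**Figure D2:**
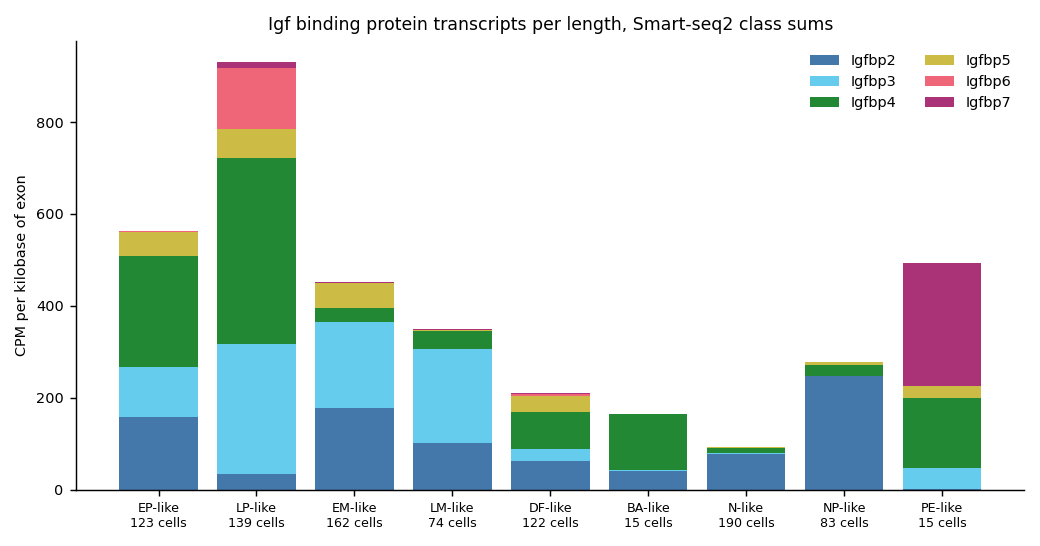
Stacked bars of the 6 binding proteins in each class on Smart-seq2, in CPM per kilobase of merged exon, all days summed; colours mark the genes. The LP-like bar is tallest at 930.3, and the leading gene changes from *Igfbp4* in EP-like, LP-like, DF-like and BA-like cells to *Igfbp3* in muscle and *Igfbp2* in neural classes.

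LP-like against EM-like cells compared a mesenchymal with a muscle branch of the lineage at the same days. All 10 members were called, 8 higher and 2 lower, beside 33.4% of the 14061 genes tested, 18.7% higher and 14.7% lower. Both ligands, *Igf2r* and 5 binding proteins were higher in LP-like cells, and *Igf1r* and *Igfbp2* were lower. *Igf1* was at 645 CPM in the LP-like and 11.2 CPM in the EM-like sum of the 10x E14.5 pool, at 611 and 25.2 in 10x E16.5, at 919 and 29.3 in ss2 E14.5 and at 1204 and 20.9 in ss2 E16.5. The 2 classes did not overlap on either platform, and the difference was 5.42 ± 0.25 (log2 fold ± SE) with an adjusted p of 8.6e-07 by edgeR's quasi-likelihood test. *Igfbp4* was at 722, 909, 1834 and 1763 CPM in the LP-like sums, in the same order of pools, and at 78.5, 86.3, 158.1 and 78.6 CPM in the EM-like ones, a difference of 3.69 ± 0.25 (adjusted p = 5.7e-06). *Igfbp6* was at 35.6, 122.3, 27.7 and 246.3 CPM against 1.12, 3.59, 0.383 and 0.656 CPM, or 7.25 ± 0.59 (adjusted p = 1.6e-05). These 3 genes had the largest differences of the 10.

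The other members moved less. *Igf2* was at 99.8, 747, 2294 and 2709 CPM in LP-like and 28.6, 93.5, 1267 and 1226 CPM in EM-like sums, with a log2 fold of 1.56 ± 0.28 (adjusted p = 0.0022). Its LP-like level was higher than the EM-like one in each pool, but the platforms overlapped. *Igf2r* was higher by 1.14 ± 0.18, *Igfbp3* by 0.80 ± 0.18, *Igfbp5* by 0.78 ± 0.16 and *Igfbp7* by 1.91 ± 0.34 on the log2 scale, each in 4 of 4 pools, with adjusted p from 0.0011 to 0.0077. *Igfbp2* was at 55.3, 26.6, 88.6 and 45.6 CPM in LP-like against 152.6, 86.3, 356.996 and 201.6 CPM in EM-like sums, a log2 fold of -1.87 ± 0.18 (adjusted p = 4.1e-05). *Igf1r* was at 45.5, 71.8, 76.2 and 40.99 against 74.6, 93.5, 100.3 and 70.6 CPM, or -0.59 ± 0.18 (adjusted p = 0.027). The median log2 fold was 1.35 over the members and 0.16 over all genes tested. Without the 10x E14.5 pool, 8 members were called.

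DF-like against LP-like cells asked how dermal fibroblasts differ from the late progenitors of the same days. *Igf1*, *Igf2*, *Igf2r*, *Igfbp3*, *Igfbp4*, *Igfbp5* and *Igfbp6* were lower in DF-like cells, each in 4 of 4 pools. In the order 10x E14.5, 10x E16.5, ss2 E14.5 and ss2 E16.5, *Igf1* was at 54.1, 65.8, 75.5 and 243.6 CPM in DF-like sums, all below the LP-like values given above, with a log2 fold of -3.16 ± 0.22 (adjusted p = 1.8e-05). *Igfbp3* was at 55.1, 59.2, 62.5 and 98.99 CPM in DF-like against 424.2, 151.5, 922 and 859 CPM in LP-like sums, or -3.05 ± 0.31 (adjusted p = 0.00016). *Igfbp4* was at 249.9, 83.4, 557 and 162.6 CPM, or -2.48 ± 0.31 (adjusted p = 0.00063). For these 3 genes the classes did not overlap across the 4 pools.

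*Igf2* was at 45.9, 98.7, 771 and 365.7 CPM in DF-like sums, a log2 fold of -2.16 ± 0.27 (adjusted p = 0.00059). *Igf2r* differed by -1.54 ± 0.18 (adjusted p = 0.00038), *Igfbp5* by -0.66 ± 0.12 (adjusted p = 0.0071) and *Igfbp6* by -3.70 ± 0.53 (adjusted p = 0.0014). The call of *Igfbp5* was lost on 10x alone (adjusted p = 0.15). *Igfbp5* was the smallest of the called differences, with 290.7, 217.2, 328.9 and 87.01 CPM against 390.9, 316.3, 621 and 138.2 CPM. *Igf1r* (-0.29 ± 0.18, adjusted p = 0.35), *Igfbp2* (0.75 ± 0.25, adjusted p = 0.086) and *Igfbp7* (-2.00 ± 0.65, adjusted p = 0.08) did not pass the test. Thus 7 of 10 members were called, all lower, beside 11.4% of the 14182 genes tested, 6.3% lower and 5.09% higher. The median log2 fold was -2.08 over the members and -0.04 over all genes. *Igfbp2* turned to -1.337 (adjusted p = 0.03) under a coarser clustering.

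The difference between DF-like and LP-like cells was not the same at both days for 5 members, in a test of the change of the class effect from E14.5 to E16.5 that was added after these values were seen. It widened for *Igf2* by a log2 of -1.47 ± 0.24 (adjusted p = 1.7e-07), for *Igfbp4* by -1.77 ± 0.23 (adjusted p = 9.1e-12) and for *Igfbp6* by -2.62 ± 0.46 (adjusted p = 2.3e-06). It narrowed for *Igf1* by 1.01 ± 0.25 (adjusted p = 0.0043) and for *Igfbp3* by 0.91 ± 0.28 (adjusted p = 0.037). The log2 ratio of *Igf1* went from -3.578 to -3.215 on 10x and from -3.604 to -2.305 on ss2. DF-like ss2 plates overlapped for *Igf1*, at 45.8 to 426.4 CPM at E14.5 and 97.1 to 367.5 CPM at E16.5. For *Igfbp4* the LP-like levels stayed between 722 and 909 CPM on 10x while DF-like cells went from 249.9 to 83.4 CPM. For *Igfbp6* the LP-like level went up on both platforms, from 35.6 to 122.3 and from 27.7 to 246.3 CPM. Beside these 5 of 10 members, 3.6% of all genes passed. In LP-like against EM-like cells 1 of 10 members passed the same test, *Igfbp6*, beside 2.57% of all genes, and in LM-like against EM-like cells 0 of 10 passed by edgeR, with 3 at an unadjusted p under 0.05, beside 2.25%. Most DF-like cells were in one cluster at E14.5 and in another at E16.5, on both platforms, and so were most LP-like 10x cells, while most LP-like ss2 cells of both days shared a cluster. Day cannot be told apart from library and batch here, and the depth of the 10x libraries differed between these days.

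**Figure D3:**
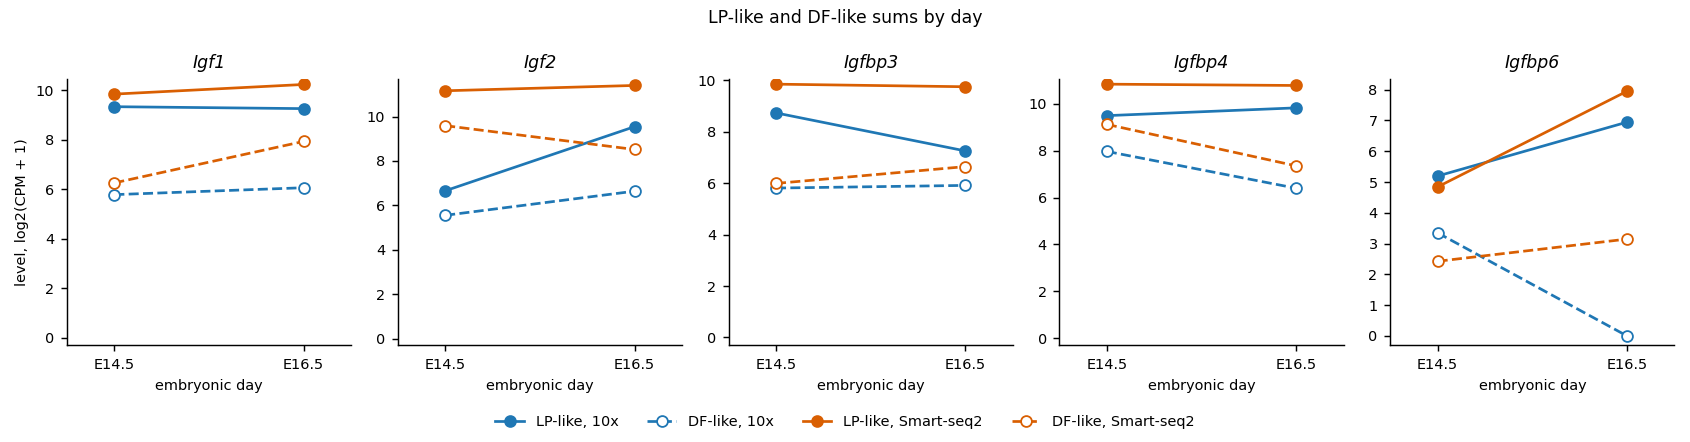
LP-like and DF-like levels at E14.5 and E16.5 for *Igf1*, *Igf2*, *Igfbp3*, *Igfbp4* and *Igfbp6*, as log2(CPM + 1) of the summed counts, with the platforms drawn separately. DF-like *Igfbp4* lies at 249.9 and 83.4 CPM on 10x and at 557 and 162.6 CPM on Smart-seq2, and LP-like *Igfbp6* is higher at E16.5 on both platforms.

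Within the LP-like class, E16.5 against E14.5 gave 2 of 10 members, both higher, beside 0.699% of the 13584 genes tested and 0.559% in this direction. *Igfbp6* was higher at E16.5 by 2.73 ± 0.60 (adjusted p = 0.0019). Over ss2 plates it ranged from 9.69 to 46.5 CPM on 3 plates of E14.5 and from 178.8 to 297.6 CPM on 4 plates of E16.5, which did not overlap. *Igfbp7* was at 22.5 and 55.8 CPM on 10x and at 3.70 and 27.4 CPM on ss2, a log2 fold of 2.42 ± 0.61 (adjusted p = 0.016), a call that was lost with DESeq2 (adjusted p = 0.066) and under a coarser clustering (adjusted p = 0.14). *Igf2* did not pass (1.77 ± 0.60, adjusted p = 0.21): it was at 99.8 and 747 CPM on 10x but at 2294 and 2709 CPM on ss2. Different clusters held most LP-like cells at E14.5 and among 10x cells at E16.5, at 106.5 and 733 CPM of *Igf2* on 10x. The comparison has 1 pool per platform and day.

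LM-like against EM-like cells followed muscle differentiation over 5 pools. *Igfbp5* was lower in LM-like cells, at 217.7 against 404.8 CPM in 10x E12.5, 3.26 against 159.3 in 10x E14.5, 26.99 against 204.9 in 10x E16.5, 11.9 against 365.3 in ss2 E14.5 and 0.864 against 102.9 in ss2 E16.5. The LM-like sum was the lower one in each pool, and the 10x E12.5 pool had the highest LM-like value. The difference was -4.35 ± 0.49 (adjusted p = 4.1e-08). *Igfbp2* was lower in 5 of 5 pools (-0.99 ± 0.21, adjusted p = 0.00067). *Igf2r* was higher by 0.72 ± 0.23 (adjusted p = 0.02) in 4 of 5 pools, with 152.4 against 165.4 CPM in ss2 E16.5, and was not called by DESeq2 (adjusted p = 0.083). Thus 3 of the 9 members tested were called, beside 24.1% of 10162 genes, 11.5% higher and 12.6% lower; *Igfbp6* was below the filter. *Igf2* (0.13 ± 0.20, adjusted p = 0.7), *Igf1r* (-0.13 ± 0.22, adjusted p = 0.72), *Igfbp3* (-0.02 ± 0.22, adjusted p = 0.97) and *Igfbp4* (0.04 ± 0.22, adjusted p = 0.92) did not pass and had small fitted values. *Igf1* did not pass either (-1.95 ± 0.91, adjusted p = 0.12).

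EP-like against EM-like cells compared the mesenchymal and muscle cells of E12.5, with 1 pool per platform. *Igf1* was at 195.9 against 19.7 CPM on 10x and at 202.6 against 18.5 CPM on ss2, a log2 fold of 3.23 ± 0.33 (adjusted p = 9.7e-15). *Igfbp4* was at 626 against 207.9 and 1086 against 242.6 CPM, or 1.73 ± 0.21 (adjusted p = 3.2e-11). *Igfbp2* (-1.35 ± 0.24, adjusted p = 4.8e-06) and *Igfbp3* (-0.82 ± 0.22, adjusted p = 0.0069) were lower in EP-like cells on both platforms. *Igf2* was called lower (-0.70 ± 0.23, adjusted p = 0.034), yet it was higher on 10x, at 102.7 against 65.6 CPM, and lower on ss2, at 1018 against 2220.4 CPM, so that its direction rests on ss2. This call was lost with DESeq2 (adjusted p = 0.28) and under a coarser clustering (adjusted p = 0.19). *Igfbp5* split the same way, with 827 against 404.8 and 326.1 against 689 CPM, and was not called (adjusted p = 0.59). In all, 5 of the 8 members tested were called, 2 higher and 3 lower, beside 8.55% of 12568 genes, 4.11% higher and 4.43% lower; *Igfbp6* and *Igfbp7* were below the filter.

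LP-like against EP-like cells set the later mesenchyme against the earlier one, and class and day cannot be told apart in it. *Igf1* was higher by 2.47 ± 0.41 (adjusted p = 0.0036), *Igf2r* by 2.51 ± 0.44 (adjusted p = 0.0056), *Igfbp6* by 7.48 ± 1.24 (adjusted p = 0.0037) and *Igfbp7* by 4.92 ± 1.04 (adjusted p = 0.014). The calls of *Igf1* and *Igf2r* were lost on 10x alone (adjusted p = 0.055 and 0.051), and that of *Igfbp7* with the platforms clustered alone (adjusted p = 0.12). *Igf2r* was at 49.4 and 60.5 CPM in the EP-like sums and between 121.4 and 461.9 CPM in the 4 LP-like ones. *Igfbp6* had no UMI in the EP-like 10x sum. Its LP-like level was 6.24 times a floor of 3 UMIs at E14.5 and 21.4 times at E16.5, without the counting error of the LP-like sums. In all 4 of 10 members were called, all higher, beside 6.02% of 14046 genes, 5.03% higher and 0.997% lower. Without the ss2 E12.5 pool edgeR called 0 members and 0 genes, with 5 members and 670 genes at an unadjusted p under 0.05, and without the ss2 E16.5 pool it called 7 members, as DESeq2 did on all pools.

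N-like against EM-like cells compared neural with muscle cells at E12.5 and E14.5. *Igf2* was at 18.9 against 65.6 CPM in 10x E12.5, 7.43 against 28.6 in 10x E14.5, 1.16 against 2220.4 in ss2 E12.5 and 0.981 against 1267 in ss2 E14.5. It was lower in N-like cells in each pool, by far more on ss2, with a log2 fold of -8.61 ± 2.61 (adjusted p = 0.048). *Igfbp3* (-5.03 ± 0.92, adjusted p = 0.01), *Igfbp5* (-4.45 ± 1.04, adjusted p = 0.022), *Igfbp4* (-1.76 ± 0.38, adjusted p = 0.017) and *Igf2r* (-1.60 ± 0.26, adjusted p = 0.0078) were lower in 4 of 4 pools, and *Igfbp2* (-1.31 ± 0.34, adjusted p = 0.029) in 3 of 4. *Igf1r* did not pass (-0.20 ± 0.19, adjusted p = 0.46), nor did *Igf1* or *Igfbp7*. Thus 6 of the 9 members tested were called, all lower, beside 29.3% of 13540 genes, 14% lower and 15.3% higher; *Igfbp6* was below the filter. Without the ss2 E12.5 pool 2 members were called, and on 10x alone the calls of *Igf2r* and *Igfbp2* were lost (adjusted p = 0.054 and 0.18).

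In EM-like cells of E16.5 against E12.5, 3 binding proteins were lower and 1 was higher, beside 10.4% of 12495 genes called, 4.87% lower and 5.52% higher. *Igfbp5* went from 404.8 to 204.9 CPM on 10x and from 689 to 102.9 CPM on ss2 (-1.53 ± 0.40, adjusted p = 0.0024), *Igfbp2* from 255.99 to 86.3 and from 549 to 201.6 CPM (-1.17 ± 0.39, adjusted p = 0.03), and *Igfbp4* from 207.9 to 86.3 and from 242.6 to 78.6 CPM (-1.17 ± 0.41, adjusted p = 0.045). The call of *Igfbp4* was lost in 5 alternatives (adjusted p = 0.054 to 0.077), named among the processing alternatives. *Igfbp7* was at 0 in both E12.5 sums and at 14.4 CPM on 10x and 5.31 CPM on ss2 at E16.5 (adjusted p = 0.00071 by edgeR). These levels were 2.19 and 38.96 times a floor of 3 counts, ratios that leave out the counting error of the E16.5 sums and are no bounds. The E16.5 plates of ss2 ranged from 1.33 to 10.2 CPM. On ss2 the change of day was also a change of cluster, with 46 of 49 EM-like cells of E12.5 in one cluster and all 59 of E16.5 in another, whereas on 10x most cells of both days were in the first of these. The calls rest on ss2: without the ss2 E12.5 pool edgeR called 0 members, with 4 at an unadjusted p under 0.05, and without the ss2 E16.5 pool 0, with 3 at that level. Without the 10x E12.5 pool 2 members were called.

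**Figure D4:**
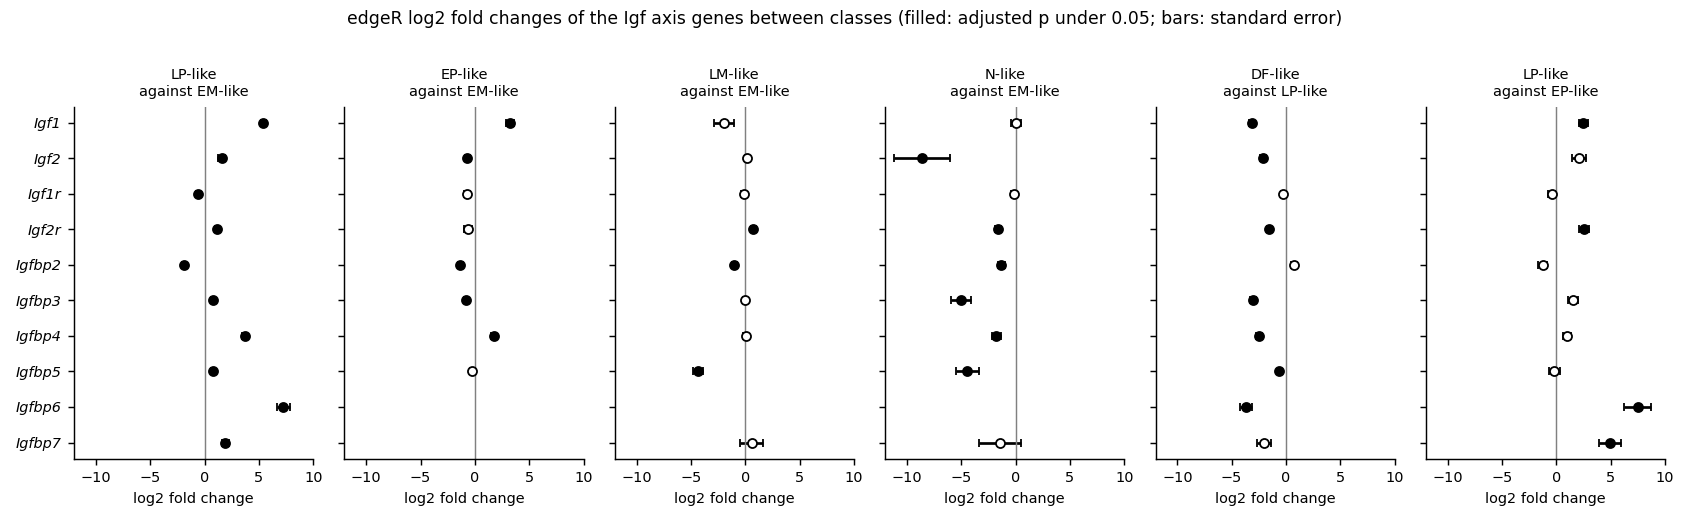
Log2 fold ± SE of the 10 genes by edgeR in 6 comparisons of classes, 1 panel each; filled points have an adjusted p under 0.05. In LP-like against EM-like all 10 points are filled, *Igfbp6* lies farthest right at 7.25 and *Igfbp2* farthest left at -1.87, while in LM-like against EM-like only *Igfbp5*, *Igfbp2* and *Igf2r* are filled.

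*Igfbp2* was called lower in LP-like, LM-like, EP-like and N-like cells than in EM-like cells, whose sums these comparisons share. For N-like cells it was lower in 3 of 4 pools, and edgeR did not call it on 10x alone (adjusted p = 0.18). *Igfbp5* and *Igfbp2* were the only binding proteins called both between LM-like and EM-like cells and between the days of EM-like cells, and those comparisons share sums as well.

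After the filters on cells, BA-like cells could be set against LP-like cells only within the 10x E16.5 library, with no replicate, so that the ratios below carry counting intervals and no test. On ss2, 47 of the 60 deposited BA-like cells of E16.5 were over the limit of 8% mitochondrial counts. *Igf1* was at 49.6 CPM (25 UMIs) in BA-like and 611.4 CPM in LP-like cells, a ratio of 0.0811 (95% interval 0.0514 to 0.123). *Igf2* was at 29.8 CPM (15 UMIs) and 746.9 CPM (0.0398, 0.0220 to 0.0669). *Igfbp4* was at 240.1 and 909.1 CPM (0.264, 0.213 to 0.326). *Igf1r* was at 0.166 (0.0560 to 0.410), *Igf2r* at 0.102 (0.0471 to 0.199), *Igfbp3* at 0.0393, *Igfbp5* at 0.0314, *Igfbp6* at 0.0162 and *Igfbp7* at 0.0711, all with intervals below 1. *Igfbp2* was at 1.12 (0.471 to 2.79), the only one whose interval held 1. So the intervals of 9 of 10 members left out 1, all below it, beside 42.7% in either direction and 22.6% below among the 7043 genes with at least 10 UMIs in the 2 classes, and *Igfbp4* was the nearest to 1 of the 9. Of the adaptors and kinases, 21 had at least 10 UMIs, and 6 had intervals above 1 (20.1% of all genes) and 2 below. *Irs4*, an adaptor of the receptor, was counted 35 times in BA-like and 0 times in LP-like cells. *Pik3r1*, a subunit of the PI3 kinase, was at a ratio of 4.85 (2.63 to 9.79), and *Foxo1*, a transcription factor that Akt holds out of the nucleus, at 6.34 (2.26 to 24.6). *Irs2* was at 1.79 (1.19 to 2.74) and *Eif4ebp1* at 2.19 (1.64 to 2.96). Of the mRNA-binding proteins and imprinted growth genes, 10 of 11 lay below 1, among them *H19*, the transcript next to *Igf2*, with 96 against 2325 UMIs (0.0308, 0.0249 to 0.0378). BA-like cells were deeper, with a median of 3030.5 UMIs against 1469.

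With all deposited cells both platforms could be tested at E16.5, an alternative chosen after seeing the data that has 1 pool per platform. The median mitochondrial share on ss2 was then 9.60% for the BA-like class, against 2.32% for the LP-like class, and its part in the differences was not tested. By edgeR 9 of 10 members were lower in BA-like cells, beside 43.4% of 12659 genes called, 20.3% lower and 23.2% higher. *Igfbp3* was at 5.70 against 150.5 CPM on 10x and at 2.90 against 827 CPM on ss2 (-7.36 ± 0.61, adjusted p = 1.6e-31). *Igfbp4* was at 233.6 against 908.5 and at 347.5 against 1720.0 CPM, the smallest of the 9 differences (-1.90 ± 0.50, adjusted p = 0.00064). *Igfbp2* did not pass (0.56 ± 0.43, adjusted p = 0.3), at 58.04 against 48.3 CPM on ss2.

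**Figure D5:**
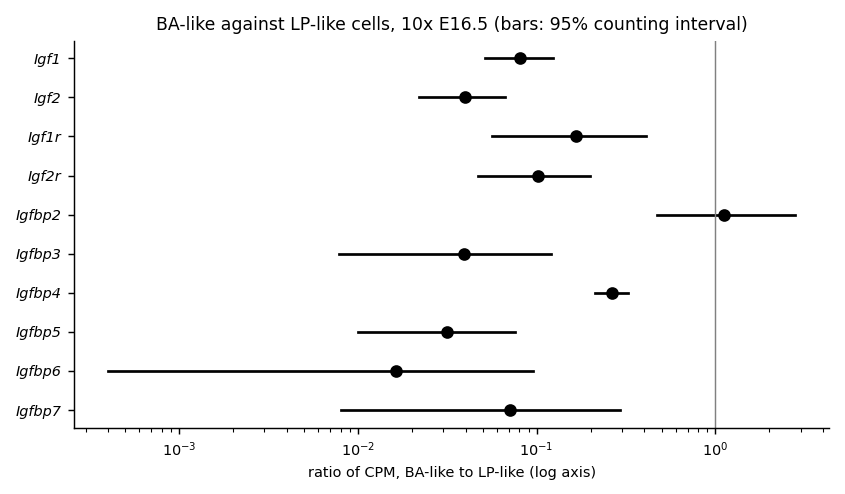
Ratio of the CPM in BA-like to that in LP-like cells of the 10x E16.5 library for each of the 10 genes, on a log axis, with 95% counting intervals; the line marks a ratio of 1. All ratios but that of *Igfbp2* (1.12) lie below 1, and *Igfbp4* is the next nearest to 1 among the binding proteins, at 0.264.

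Bulk Smart-seq2 libraries of Pdgfra-/Cd36+ cells, sorted from E16.5 embryos of the same kind, were given as 2 technical duplicates of 24862787 and 32947290 counts. They expressed the fat markers *Fabp4* (4576 and 3935 CPM), *Adipoq* (1668 and 1228 CPM) and *Ucp1* (259.9 and 205.5 CPM). *Igfbp4* was the highest of the 10 genes per length, at 52.1 and 59.7 CPM per kilobase, ahead of *Igf2* at 19.3 and 27.9. *Igf1* was at 42.3 and 53.5 CPM, *Igf1r* at 10.8 and 11.0 CPM and *Igf2r* at 40.9 and 46.3 CPM. *Igfbp3*, *Igfbp6* and *Igfbp7* were at most at 3.74 CPM in either duplicate. In such bulk samples fewer cells of a type and less RNA per cell cannot be told apart.

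The wider pathway was read from 3 lists: 12 receptors, proteases and carriers, 27 adaptors and kinases, and 12 mRNA-binding proteins and imprinted growth genes. In LP-like against EM-like cells, 6 of the 10 tested receptors, proteases and carriers passed, all higher, beside 18.7% of all genes. Among them *Adam12*, a protease of binding proteins, was at 22.03, 87.7, 66.2 and 41.8 CPM in LP-like against 2.80, 0, 1.42 and 4.07 CPM in EM-like sums (4.30 ± 0.50, adjusted p = 0.00016). *Pappa2*, the metalloprotease that cleaves Igfbp3 and Igfbp5, exceeded its LP-like level in the DF-like sums, at 47.9, 111.9, 434.6 and 89.7 against 8.44, 5.32, 48.7 and 8.40 CPM (3.21 ± 0.24, adjusted p = 2.3e-05). *Htra3* was higher in LP-like than in EP-like cells (6.99 ± 0.95, adjusted p = 0.0013) and in EM-like cells of E16.5 than of E12.5 (6.19 ± 0.65, adjusted p = 8.2e-19). In DF-like against LP-like cells this list gave 2 higher and 3 lower of 10 tested, beside 5.09% and 6.3% of all genes, *Adam12* among the latter (-2.96 ± 0.39, adjusted p = 0.0008). *Pappa* and *Pappa2* were both higher in EP-like than in EM-like cells (5.80 ± 1.18, adjusted p = 0.00012, and 4.56 ± 0.84, adjusted p = 1.6e-05), and *Stc2*, an inhibitor of both proteases, was lower (-7.56 ± 1.504, adjusted p = 7.3e-05), at 0.105 against 18.3 CPM on ss2. *Igfbpl1*, a binding-protein-like gene, was at 708, 1701, 409.3 and 458.3 CPM in N-like and at most 21.9 CPM in EM-like sums (9.23 ± 1.59, adjusted p = 0.009). *Vtn* was seen almost only in the LP-like sum of ss2 E16.5, at 36.6 CPM, so that its calls rest on 1 pool.

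Of the adaptors and kinases, 7 of 27 tested were higher and 3 lower in LP-like against EM-like cells, beside 18.7% and 14.7% of all genes, so that both shares lay near those of all genes. Among the LP-like and EM-like sums compared, *Irs4* was seen in LP-like cells of E14.5 alone, at 4.69 CPM on 10x and 17.2 CPM on ss2. It was higher in BA-like 10x cells of E16.5, at 69.4 CPM. *Inppl1*, a lipid phosphatase that opposes the PI3 kinase, was higher in LM-like than in EM-like cells in 5 of 5 pools, with 139.3, 112.6, 94.5, 472.5 and 296.8 against 13.1, 14.02, 17.97, 86.003 and 32.5 CPM (3.11 ± 0.24, adjusted p = 2.8e-11). *Irs2* was lower there (-1.65 ± 0.52, adjusted p = 0.018). In N-like against EM-like cells 5 of the 26 tested were higher and 6 lower, beside 15.3% and 14% of all genes, among the latter *Eif4ebp1*, the translation repressor released by mTOR (-4.11 ± 0.55, adjusted p = 0.0047).

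Of the mRNA-binding proteins and imprinted growth genes, 5 of 10 tested passed in DF-like against LP-like cells, all lower, beside 6.3% of all genes. *Plagl1*, an imprinted transcription factor, was at 109.1, 107.5, 451.04 and 231.4 CPM in DF-like against 999.8, 976, 3126 and 2462 CPM in LP-like sums (-3.15 ± 0.14, adjusted p = 2.1e-06), and it was higher in LP-like than in EP-like cells (3.91 ± 0.53, adjusted p = 0.0013). *Igf2bp2*, which binds the *Igf2* mRNA, was lower in LM-like than in EM-like cells (-1.69 ± 0.31, adjusted p = 0.00011). *Dlk1* was higher in EM-like cells of E16.5 than of E12.5, from 260.4 to 2318 CPM on 10x and from 52.3 to 287.1 CPM on ss2 (3.17 ± 0.37, adjusted p = 5.8e-15).

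Over 17 class sums of 10x and 5626 genes, the genes most like each member were given by Pearson's r of log2(CPM + 1), as a description, since the sums share libraries and depth. *Igf2* was most like *Myadm* (0.95) and *Igf2r* (0.92), so that the ligand and the receptor that clears it were each among the other's nearest 2 genes. *Igf1* was most like *Vkorc1* (0.86) and *Col12a1* (0.84), *Igf1r* like *Tbpl1* (0.84) and *Sltm* (0.82), *Igfbp2* like *Cdc42se2* (0.93) and *Taf3* (0.93), and *Igfbp3* like *Abracl* (0.91) and *Col26a1* (0.89). *Igfbp4* was most like *Axl* (0.85) and *Ppp1r15b* (0.82), *Igfbp5* like *Gpc6* (0.89) and *Hdac7* (0.88), *Igfbp6* like *Pofut2* (0.79) and *Sntb2* (0.75), and *Igfbp7* like the pericyte marker *Ndufa4l2* (0.87) and *Ccl11* (0.85). Among the members themselves *Igfbp2* ran opposite to *Igfbp7* (-0.87), and *Igf1* ran with *Igfbp4* (0.73).

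Of the markers of other cells a sort could hold, endothelial and macrophage genes were low in the sums compared on 10x. The 6 endothelial genes summed to between 3.26 and 42.5 CPM, highest in LP-like cells of E16.5, and the 7 macrophage genes to between 0 and 15.9 CPM. The 4 epithelial genes reached 61.1 CPM in EM-like cells of E16.5 and at most 9.12 CPM in the other 10x sums. The 6 erythroid genes summed to between 111.6 and 177.1 CPM in the 10x E14.5 sums and to at most 43.5 CPM in those of the other days. The 10 cartilage genes were not low: over all days on 10x they summed to 357.1 CPM in NP-like, 340.8 in EP-like, 188.3 in LP-like, 162.4 in N-like and 73.9 CPM in EM-like cells, and on ss2, where 9 of them were listed, to 578.5 CPM for the EP-like and 374.4 CPM for the LP-like class. In NP-like 10x cells only 5 of the 10 had a UMI, against 9 in EP-like and LP-like cells. The part of single genes in these sums, *Sox9* among them, was not examined. On ss2 the endothelial sum was higher than on 10x, between 41.9 and 320.3 CPM, with the top value in N-like cells of E12.5. The part of these RNAs in the class and day differences was not tested.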

How the data were processed

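Mouse cells of 3 days were measured by 10x 3' v2 and by Smart-seq2. Per the labels and the study's methods, the authors counted 10x UMIs with Cell Ranger on GRCm38.p6 and Smart-seq2 reads with kallisto 0.44.0 and tximport, and deposited UMI counts for 10x, expected counts for Smart-seq2, and counts for bulk. The submitters' notes also name bcl2fastq, STAR, Seurat and mm10, with versions not given in the sources used here. The sample list names 1277 Smart-seq2 cells, of which 982 columns were held by the tables. Bulk column names had lost the signs of the sorted markers, so that 16 of 18 columns could not be tied to a sample and were not used, and the 10 planned bulk comparisons were not run.

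Cells were kept with YFP above 0, at most 8% mitochondrial counts, at least 4000 genes (Smart-seq2) and at most 15000 UMIs (10x). Seurat 5.3.0 integrated the platforms by CCA (2000 variable genes, 30 components, resolution 0.8), without the 61 Igf axis and pathway genes. A cluster was named with a score of at least 0.5 and 3 markers. The score had been set at 0.8 and was lowered after an E12.5 mesenchyme cluster was left unnamed, and a cartilage-led cluster of 21 cells was then left unnamed; neither choice used the values of the 10 genes. Scrublet doublets were kept and removed as an alternative.

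Expected counts were rounded. Sums of at least 20 cells were tested with edgeR 4.0.16 (TMM, filterByExpr, quasi-likelihood, pool as a term where classes share pools, otherwise platform), with Benjamini-Hochberg adjustment over all genes and a threshold of 0.05. CPM in the text are before TMM. DESeq2 1.42.0, RLE scaling, no filter, 10x alone, other clusterings, all deposited cells and leaving out each pool were alternatives. The tests were first tested on simulated data, in which 200 genes per comparison were changed by 2-fold or 4-fold and the others were not changed. Genes without a change made up more than the adjusted threshold among the calls in all comparisons but EP-like against EM-like and N-like against EM-like. The latter made no call in the simulated data, so that no such share exists for it. The share of unchanged genes among the calls was 31.39% in DF-like against LP-like, 19.05% in LP-like against EM-like and 18.92% in LP-like against EP-like. It was between 8.16% and 16.67% in the other comparisons above the threshold. Calls in all comparisons with such shares are therefore uncertain, above all near the threshold. For N-like against EM-like the simulated data gave no share to judge the calls by. Most real comparisons called more than 200 genes, up to 4702, so that these shares need not hold for the real calls. In the simulated data the N-like comparison recovered none of the genes made to change and the LP-like days almost none. Intervals are exact (95%). Positions and exon lengths are from GENCODE on GRCm38, and promoters from RefSeq. The 10 genes, the lists and the naming rule were chosen with earlier results of these data known. The rule names all 10 genes and, of the wider lists, up to 4 called genes of largest fold per tested comparison.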

Additional observations from a re-analysis of the deposited data

Results flagged for a closer look

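For *Igf1* in LM-like against EM-like cells, the log2 ratio of the Smart-seq2 E14.5 pool lay far from those of the other 4 pools, at -10.0 against -2.04 to 0.686, with 0.0284 CPM in LM-like and 29.3 CPM in EM-like cells. This was 1 of 35 sets of ratios examined, and chance marks about 1 set in 20. The EM-like level differed between the plates of that day, from 0.321 to 49.7 CPM over 4 plates.

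The effect of DF-like against LP-like identity differed between E16.5 and E14.5 by edgeR's interaction test for *Igf1* (1.007 on the log2 scale, adjusted p = 0.0043), *Igf2* (-1.47, adjusted p = 1.7e-07), *Igfbp3* (0.905, adjusted p = 0.037), *Igfbp4* (-1.774, adjusted p = 9.1e-12) and *Igfbp6* (-2.622, adjusted p = 2.3e-06). The effect of LP-like against EM-like identity differed for *Igfbp6* (2.592, adjusted p = 0.0091), beside 2.57% of all genes. In LM-like against EM-like cells edgeR called 0 of the 10 members in this test, with 3 at an unadjusted p under 0.05, beside 2.25% of all genes; *Igfbp5* was nearest (-1.69, adjusted p = 0.068). No other tool was run for these tests, which were added after the values were seen.

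On Smart-seq2 plates, which the comparisons do not use singly, *Igfbp3* in LP-like cells ranged from 253.1 to 1229 CPM over 3 plates of E14.5 and from 586 to 1292 CPM over 4 plates of E16.5.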

How the results depend on the processing

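Of 41 calls of members, 31 were kept under all alternatives other than leaving out a pool and 22 under all that were run. Shares below are of the genes with an adjusted p. DESeq2 called 572 genes (4.91%) in EP-like against EM-like (1074 and 8.55% by edgeR), 5831 (44.3%) in N-like against EM-like (3964 and 29.3%), 1424 (10.8%) with 7 members in LP-like against EP-like (846 and 6.02% with 4), 722 (6.12%) in EM-like E16.5 against E12.5 (1298 and 10.4%), and 0.97% of genes (0.70% by edgeR) with 1 member rather than 2 in LP-like E16.5 against E14.5. With no filter on low counts 16.02% were called in LM-like against EM-like (24.1%). The 10x sums alone, with fewer genes tested, gave 937 genes in LM-like against EM-like (2452), 767 in DF-like against LP-like (1615), 3023 in LP-like against EM-like (4702), 1806 in N-like against EM-like, and 3.07% of genes with 2 members in LP-like against EP-like. Resolution 1.2 gave 1353 genes (10.1%) and 7 members in the last of these, and resolution 0.4 gave 1 member in LP-like E16.5 against E14.5. The causes were not tested, beyond the smaller numbers of sums and genes with 10x alone.

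Called members lost outside leave-one-out were *Igf2r* in LM-like against EM-like (DESeq2 0.083, 10x alone 0.067, as adjusted p), *Igfbp5* in DF-like against LP-like (10x alone 0.15), *Igf2* in EP-like against EM-like (DESeq2 0.28, resolution 0.4 0.19), *Igf2r* and *Igfbp2* in N-like against EM-like (10x alone 0.054 and 0.18), *Igf1*, *Igf2r* and *Igfbp7* in LP-like against EP-like (0.055 and 0.051 with 10x alone, 0.12 with the platforms clustered alone), *Igfbp4* between the days of EM-like cells (0.054 to 0.077 in 5 alternatives) and *Igfbp7* between those of LP-like cells (DESeq2 0.066, resolution 0.4 0.14).

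Signs turned only for members that were not called. In LM-like against EM-like, *Igfbp4* was at -0.054 (DESeq2), -0.069 (RLE), -0.219 (10x alone), -0.016 (platforms clustered alone) and -0.135 (all deposited cells), *Igf2* at -0.008 (RLE) and -0.012 (10x alone), and *Igfbp3* at 0.05 (platforms alone) and 0.147 (all cells). *Igfbp2* in DF-like against LP-like was at -1.337 (resolution 0.4, adjusted p = 0.03, a call in the other direction) and -0.61 (platforms alone). *Igf1* in N-like against EM-like was at -0.002 (DESeq2), -0.231 (resolution 0.4), -0.671 (platforms alone) and -0.04 (doublets removed). *Igfbp5* in LP-like against EP-like was at 0.151 (resolution 1.2) and 0.897 (platforms alone). Between the days of EM-like cells *Igf2* was at -0.057 (DESeq2), -0.089 (RLE), -0.018 (platforms alone), -0.009 (doublets removed) and -0.026 (all cells), and between those of LP-like cells *Igf1r* at -0.048 (resolution 0.4) and -0.288 and *Igf2r* at -0.084 (platforms alone).

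Leaving out each pool in turn gave 14.45% to 22.35% of genes in LM-like against EM-like and 6.61% to 17.5% in DF-like against LP-like. In N-like against EM-like it gave 2 (without Smart-seq2 E12.5) to 6 members and 11.9% to 27.7% of genes, in LP-like against EP-like 0 (without Smart-seq2 E12.5) to 7 members and 0% to 14.2%, and between the days of EM-like cells 0 (without either Smart-seq2 pool of these days) to 5 members and 0.714% to 12.2%. In LP-like against EM-like 8 (without 10x E14.5) to 10 members were called. By edgeR the 0 members stood beside 5 (LP-like against EP-like), 4 and 3 (EM-like days) at an unadjusted p under 0.05. Fitted values that changed sign ranged from -0.245 to 0.106 for *Igfbp3* and -0.108 to 0.139 for *Igfbp4* in LM-like against EM-like, from -0.371 to 0.274 for *Igf1* in N-like against EM-like, from -0.968 to 0.478 for *Igfbp5* in LP-like against EP-like, and from -0.571 to 0.854 for *Igf2* between the days of EM-like cells.

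The class with the highest 10x level was kept for 10 of 10 members, or 9 with the platforms clustered alone (*Igfbp5* then in LP-like cells). By share of cells with a UMI, thinning kept the leading class of 7. The 9 intervals below 1 in BA-like against LP-like cells stayed 9 in each alternative. EP-like against EM-like and the LP-like days allow no leaving out of a pool, since no residual degrees of freedom remain, and they and the EM-like days were not run on 10x alone. No bulk alternative was run. Comparisons of classes that share pools had the pool as a block already. No paired analysis was possible because the sums carry no replicate numbers to pair by beyond the pool. Depth limits the genes at a few UMIs, *Igfbp6* and *Igfbp7* outside their leading classes, and fitted folds against sums at 0 are no bounds.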
